A study of Pongo abelii with 8 samples.

Results

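The amino acid and monocarboxylate transporters of 7 solute carrier families (SLC1, SLC3, SLC6, SLC7, SLC16, SLC38 and SLC43) were compared between skin fibroblasts of orangutans and the induced pluripotent stem cells (iPSCs) made from them. The genes were taken by name: a row of the expression table was used where the array annotation gave it exactly 1 gene symbol and that symbol named a carrier of one of these families. This gave 87 probe sets, the groups of short probes that together read 1 transcript, for 49 genes, out of 22277 probe sets and 11963 genes with such a symbol. For counts each gene was represented by its probe set with the highest mean over the 8 arrays. The genes divided into 7 of the SLC1 family, 2 of SLC3, 15 of SLC6, 10 of SLC7, 5 of SLC16, 8 of SLC38 and 2 of SLC43.

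The cells came from 2 Sumatran orangutans, KB10460, a female aged 43 years, and KB10973, a male aged 29 years. Each animal gave 1 fibroblast culture and 3 iPSC colonies, so that 2 fibroblast arrays were set against 6 iPSC arrays. The fibroblasts were grown from limb skin and were not transduced, and the iPSCs were the same donors' fibroblasts after reprogramming with retroviruses for 4 human factors (c-MYC, KLF4, OCT4 and SOX2). Colonies of an animal share its genome and its fibroblast culture, but the fits treat them as replicates. In the comparison of cell types the p-values therefore rest on the spread among the 6 colonies and on the difference between the 2 fibroblast cultures. Either can be the larger: for SLC7A5 the SD of the log2 values was 0.10 among the colonies and 0.72 between the fibroblast cultures. In the comparisons between donors the p-values measure only the spread among colonies of the same animal. The spread between animals is not measured well by any of them. The sample protocols describe a fetal bovine serum medium for fibroblasts and a serum replacement medium for iPSCs, whereas the series description gives the serum replacement medium for both. By the study's methods the fibroblasts were kept with fetal bovine serum and the iPSCs in another base medium with serum replacement. Both media held added nonessential amino acids and glutamine, with more added glutamine for the fibroblasts. Medium and cell type therefore cannot be told apart. The arrays carry probes for human transcripts, so that a probe set may read the orangutan transcript poorly. Levels of different probe sets were used only to choose 1 probe set for each gene and to split genes at a mean log2 value of 5.

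Values are on a log2 scale, where a difference of 1 is a doubling. All correlations between pairs of iPSC arrays lay between 0.986 and 0.994, the 2 fibroblast arrays correlated at 0.973, and iPSC and fibroblast arrays correlated at 0.842 to 0.885 over all probe sets. The 6 pluripotency markers measured were all higher in iPSCs, with array means of 8.78 to 9.19 against 3.92 and 3.98 in fibroblasts. Of 9 fibroblast markers 8 were lower in iPSCs and THY1 was higher. Markers of other cells also differed. PECAM1 and CD14 were lower in iPSCs, and KDR, TEK, AIF1, NES, TUBB3 and PMEL were higher. Over whole lists the array means were 4.54 to 5.21 in iPSCs against 4.13 to 4.61 in fibroblasts for 5 endothelial markers, and 3.93 to 4.24 against 4.49 to 5.15 for 4 macrophage markers. They were 6.16 to 6.40 against 5.04 to 5.34 for 4 neural markers, 4.14 to 4.39 against 3.59 to 3.64 for 3 melanocyte markers and 3.48 to 3.66 against 3.61 to 3.62 for 4 keratinocyte markers. By the study's methods the iPSC colonies were expanded on inactivated mouse embryonic fibroblasts, so culture on feeder cells cannot be told apart from cell type. The part of feeder cells or other cells in the transporter results was not tested.

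Cells take up amino acids through carriers with overlapping substrates. Sodium-coupled carriers, such as many SLC38 proteins, load the cytosol with small neutral amino acids and glutamine. SLC1 proteins carry glutamate or exchange neutral amino acids. Exchangers of the SLC7 family trade amino acids of the cytosol for leucine, arginine or cystine. The light chains of SLC7 exchangers reach the plasma membrane only when bound to an SLC3 glycoprotein. SLC6 proteins use the sodium and chloride gradients to carry neurotransmitters, creatine and amino acids, and many SLC16 proteins carry lactate, pyruvate and other monocarboxylates. Pluripotent cells in culture depend on particular amino acids, threonine in the mouse and methionine in human cells.

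The leucine exchanger and its partner were higher in iPSCs, and the glutamine carrier SNAT2 and the nucleobase carrier SLC43A3 were lower. In all, 6 of the 49 genes were higher in iPSCs, 2 were lower and 41 passed in neither direction, where a gene had to pass a fold of 1.5 and, in limma, a p of 0.05 after Benjamini-Hochberg adjustment over all probe sets. Thus 8 of 49 (16.3%) were called, where 26.7% of all 11963 genes were called, 15.2% higher and 11.5% lower. The median log2 fold change was -0.03 over the transporters and -0.0039 over all genes, and the median absolute change was 0.16 and 0.23. Most of these genes gave low signals: 36 of the 49 had a mean log2 value of 5 or less, where folds are understated. Of these 36 genes 2 were called (12.3% of all genes at that level), and of the 13 brighter genes 6 were called (51.2% of all genes at that level). In 7 transporters every iPSC array lay above both fibroblast arrays (23.6% of all genes) and in 8 every one lay below (19.7%), together 15 of 49 against 43.3% of all genes. Changes over 4-fold were found in 2 transporters, SLC7A5 and SLC43A3, against 6.16% of all genes.

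**Figure D1:**
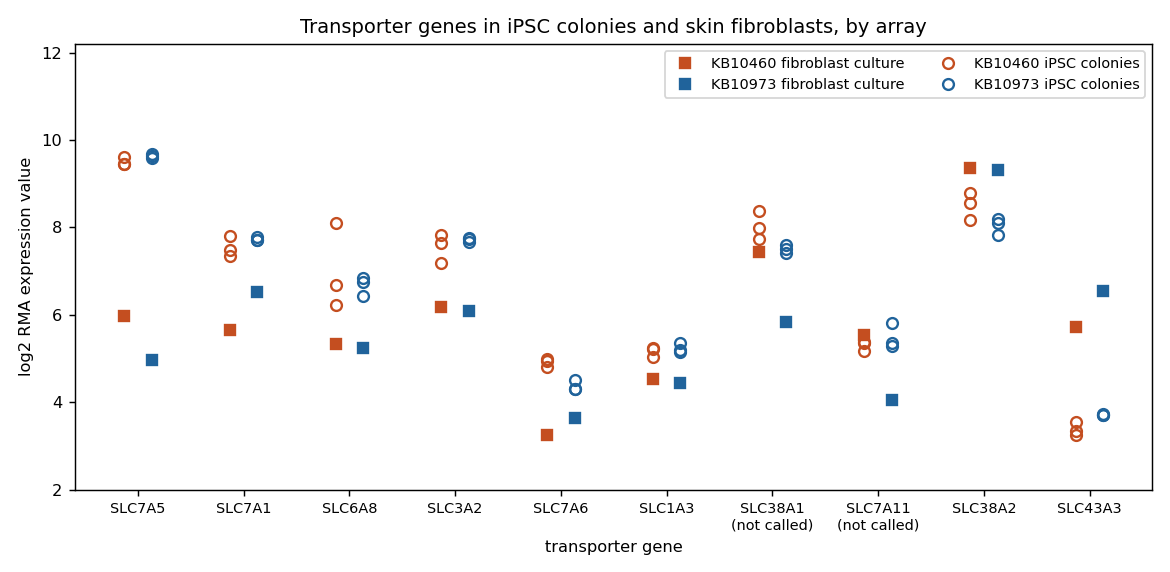
Log2 expression values (vertical axis) of 10 transporter genes in each of the 8 arrays; filled squares are the 2 fibroblast cultures, open circles the 6 iPSC colonies, and colour gives the donor. For SLC7A5 all colonies lie between 9.44 and 9.68 and both fibroblast cultures at or below 5.98, whereas for SLC43A3 the fibroblasts lie at 5.72 and 6.54 and all colonies at or below 3.73; SLC38A1 and SLC7A11 were not called.

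SLC7A5 (LAT1), which exchanges glutamine for leucine and other large neutral amino acids, changed most. It read 5.98 in the KB10460 and 4.97 in the KB10973 fibroblasts, 9.46, 9.62 and 9.44 in the KB10460 colonies and 9.68, 9.64 and 9.59 in those of KB10973. The 6 colonies lay close together, while the fibroblast cultures differed by 1.02, and the cell types did not overlap. The mean was 9.57 ± 0.10 (SD, n = 6) against 5.47 ± 0.72 (n = 2), a log2 fold change of 4.10 (SE 0.21), or 17.1-fold, with a limma adjusted p of 1.1e-06. Leaving out 1 array at a time gave 3.59 to 4.61.

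SLC3A2 (4F2hc, CD98), the glycoprotein that pairs with LAT1 and other light chains, was also higher in every colony. Its values were 6.18 and 6.10 in the fibroblasts of KB10460 and KB10973, 7.19, 7.83 and 7.64 in the KB10460 colonies and 7.76, 7.66 and 7.73 in the KB10973 colonies. Even the lowest colony was above both fibroblast cultures. The change was 1.5 (SE 0.15), or 2.82-fold, with a limma adjusted p of 8.1e-05. Its homologue SLC3A1, the partner of the cystine carrier SLC7A9, read 3.23 in both cell types and was not called.

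Of the other SLC7 genes, SLC7A1 and SLC7A6 were called higher. SLC7A1 (CAT1), a carrier of arginine and lysine, read 5.66 and 6.53 in the KB10460 and KB10973 fibroblasts, 7.48, 7.81 and 7.34 in the KB10460 colonies and 7.78, 7.72 and 7.72 in the KB10973 colonies. No colony overlapped the fibroblasts, and the change was 1.55 (SE 0.21, limma adjusted p = 0.00048), or 2.93-fold. Its 4 other probe sets gave 0.21, -0.05, -0.24 and -0.02 and none was called. With all its probe sets averaged the change was 0.29, under the fold threshold.

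SLC7A6, a 4F2hc partner that exchanges arginine for neutral amino acids, read 3.25 in the KB10460 and 3.64 in the KB10973 fibroblasts. The KB10460 colonies gave 4.82, 4.94 and 4.99 and the KB10973 colonies 4.31, 4.31 and 4.50. All colonies were above the fibroblasts, and the KB10460 colonies were the higher ones. The change was 1.20 (SE 0.21, limma adjusted p = 0.0023), or 2.30-fold. Its other probe sets gave 0.27 and 0.08 and were not called, and the mean of its probe sets gave 0.52, again under the fold threshold.

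SLC7A11 (xCT), the cystine and glutamate exchanger, divided the fibroblast cultures on its probe set with the highest mean. It read 5.53 in the KB10460 fibroblasts and 4.05 in those of KB10973, against 5.38, 5.36 and 5.17 in the KB10460 colonies and 5.28, 5.36 and 5.82 in the KB10973 colonies. The KB10460 fibroblasts lay within the range of the colonies and the KB10973 fibroblasts far below it. The change over both donors was 0.60 (SE 0.32, limma adjusted p = 0.22) and was not called. Without the KB10460 fibroblasts it was 1.34 and called, and without the KB10973 fibroblasts it was -0.14. The other probe sets of SLC7A11 read 3.62 and 3.17 in the KB10460 fibroblasts and 3.58 and 2.95 in those of KB10973. Their changes were 0.04 and 0.23, and neither was called. The remaining SLC7 genes (SLC7A2, SLC7A4, SLC7A7, SLC7A8, SLC7A9 and SLC7A10) were not called. Among them SLC7A8 (LAT2), a second light chain for neutral amino acids, read 6.45 ± 0.31 in iPSCs against 6.73 ± 0.18 in fibroblasts.

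**Figure D2:**
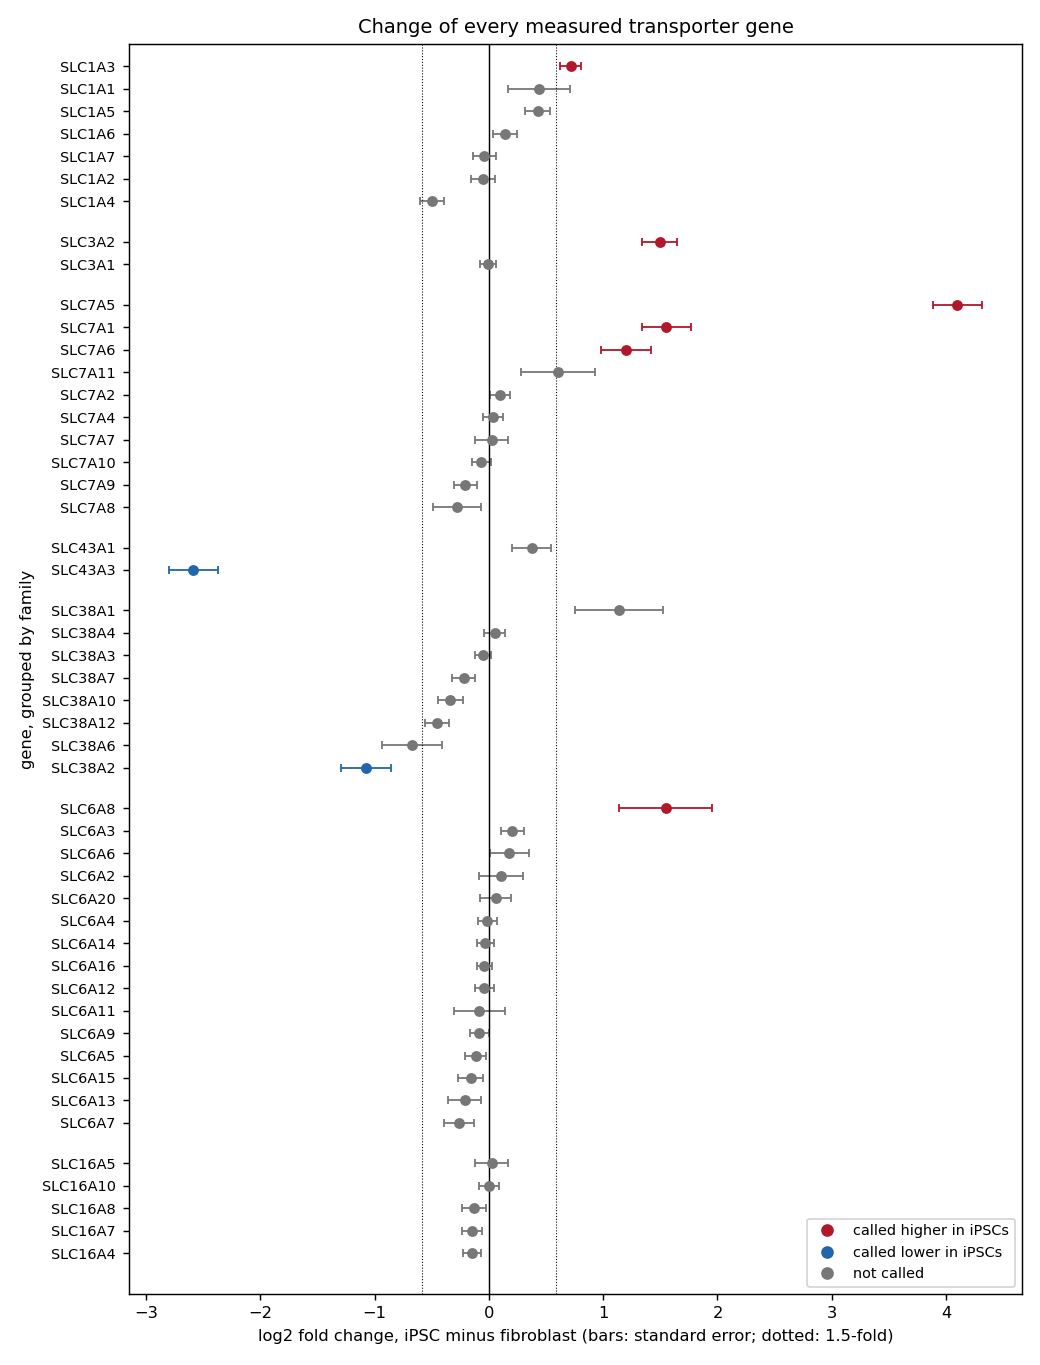
Log2 fold change of iPSCs over fibroblasts (horizontal axis) for each of the 49 transporter genes, grouped by family, with the standard error as bars and 1.5-fold as dotted lines. The 6 genes called higher are red and the 2 called lower blue, and SLC7A5 and SLC43A3 lie at the ends, at 4.10 and -2.58.

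Of the SLC43 genes, SLC43A3, a carrier of purine nucleobases rather than amino acids, was lower in iPSCs. It read 5.72 and 6.54 in the KB10460 and KB10973 fibroblasts, 3.33, 3.54 and 3.25 in the KB10460 colonies and 3.71, 3.70 and 3.73 in the KB10973 colonies. Both fibroblast cultures were well above every colony. The change was -2.58 (SE 0.21, limma adjusted p = 1.9e-05), or 6.0-fold lower. A second probe set of the gene read 5.70 in the KB10460 fibroblasts but only 3.97 in those of KB10973, which was inside the colonies' range of 3.81 to 4.02. Its change of -0.93 (SE 0.34, limma adjusted p = 0.075) was not called, although with donor as a block the adjusted p was 0.047. SLC43A1 (LAT3), which carries large neutral amino acids, was not called, at 5.24 ± 0.25 against 4.87 ± 0.03.

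The SLC38 family, which supplies cells with glutamine, alanine and serine, had a median log2 fold change of -0.28 (-0.0039 over all genes). In 5 of its 8 genes every colony lay below both fibroblast cultures (19.7% of all genes). Of the 8, 1 gene was called lower (12.5%, against 11.5% of all genes) and none higher (15.2% of all genes). SLC38A2 (SNAT2), the carrier that amino acid starvation induces in many cells, read 9.37 and 9.31 in the KB10460 and KB10973 fibroblasts, 8.17, 8.78 and 8.55 in the KB10460 colonies and 8.09, 7.82 and 8.20 in the KB10973 colonies. Every colony was below both fibroblast cultures. The change was -1.07 (SE 0.22, limma adjusted p = 0.0050), or 2.10-fold lower, and a second probe set gave -1.09 (SE 0.19) and was also called lower.

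SLC38A1 (SNAT1), a close relative of SNAT2 with similar substrates, pointed the other way but was not called. It read 7.43 in the KB10460 and 5.83 in the KB10973 fibroblasts, against 7.75, 8.38 and 7.99 in the KB10460 colonies and 7.43, 7.50 and 7.61 in the KB10973 colonies. The colonies and the KB10460 fibroblasts touched at 7.43, and the KB10973 fibroblasts stood apart. The change was 1.14 (SE 0.38, limma adjusted p = 0.053). With donor as a block the adjusted p was 0.0071, and with the colonies of each donor averaged to 1 value it was 0.31. Without the KB10460 fibroblasts the change was 1.94, and without the KB10973 fibroblasts it was 0.34.

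SLC38A6 changed by -0.67 (SE 0.26, limma adjusted p = 0.092), which with donor as a block gave an adjusted p of 0.013 and with averaged colonies 0.20. The gene annotated as SLC38A12 gave -0.46 (SE 0.11) and SLC38A10 gave -0.34 (SE 0.11), with limma adjusted p of 0.0099 and 0.049. Both stayed under the fold threshold although no colony overlapped the fibroblasts. SLC38A7, a lysosomal glutamine carrier, gave -0.22 (SE 0.10, limma adjusted p = 0.14). SLC38A3 and SLC38A4 were not called either.

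The SLC1 family holds the glutamate carriers and the 2 neutral amino acid exchangers ASCT1 and ASCT2. By the probe set with the highest mean only SLC1A3 was called, 14.3% of the family against 26.7% of all genes. SLC1A3 (EAAT1, known as the glutamate carrier of astrocytes) read 4.52 and 4.44 in the KB10460 and KB10973 fibroblasts, 5.23, 5.22 and 5.03 in the KB10460 colonies and 5.20, 5.15 and 5.35 in the KB10973 colonies. The colonies were all higher than the fibroblasts, and the change was 0.72 (SE 0.09, limma adjusted p = 0.00029), or 1.64-fold. SLC1A5 (ASCT2), which brings glutamine into cells, changed by 0.43 (SE 0.11, limma adjusted p = 0.016), under the fold threshold, although every colony exceeded both fibroblast cultures.

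SLC1A4 (ASCT1), a carrier of serine, alanine and cysteine, had 4 probe sets, of which 1 was called lower. That probe set read 4.17 and 4.59 in the KB10460 and KB10973 fibroblasts, 3.35, 3.26 and 3.67 in the KB10460 colonies and 3.53, 3.70 and 3.39 in the KB10973 colonies, a change of -0.89 (SE 0.15). The probe set with the highest mean read 4.18 and 4.42 in the fibroblasts, 3.67, 3.87 and 3.77 in the KB10460 colonies and 3.95, 3.88 and 3.68 in the KB10973 colonies. In both, all colonies lay below the fibroblasts, but the second change was -0.50 (SE 0.11, limma adjusted p = 0.0062) and missed the fold threshold. Without the KB10460 fibroblasts it was -0.62 and called. The remaining probe sets of SLC1A4 gave 0.0053 (limma adjusted p = 0.98) and -0.22 (limma adjusted p = 0.091) and were not called. The glutamate carriers SLC1A1, SLC1A2, SLC1A6 and SLC1A7 were not called, with SLC1A2 at 5.24 ± 0.13 in iPSCs against 5.30 ± 0.03 in fibroblasts. Other probe sets of SLC1A2 had means over the arrays of 3.21 and 3.01.

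In the SLC6 family 13 of 15 genes had a mean of 5 or less, where 12.3% of all genes were called. The family had 1 called gene (6.67%, against 26.7% of all genes), SLC6A8, the creatine carrier. It read 5.33 and 5.25 in the KB10460 and KB10973 fibroblasts, 8.10, 6.22 and 6.68 in the KB10460 colonies and 6.75, 6.43 and 6.83 in the KB10973 colonies. All colonies exceeded the fibroblasts, with KB10460 colony 1 far above the rest. The change was 1.55 (SE 0.41, limma adjusted p = 0.019), or 2.92-fold. The same colony was also the highest on the gene's other probe sets, at 7.72 and 7.92, and these gave changes of 1.14 (limma adjusted p = 0.096, not called) and 1.36 (limma adjusted p = 0.035, called higher). The call ended when either fibroblast array was left out, with limma adjusted p of 0.087 and 0.088, and with array weights at 0.055. SLC6A8 shares sequence with pseudogene copies, so that its probe sets may read more than 1 locus, and 1 further probe set annotated with those copies was not used.

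None of the 14 other SLC6 genes was called. They include the carriers of noradrenaline (SLC6A2), dopamine (SLC6A3), serotonin (SLC6A4), glycine (SLC6A5 and SLC6A9), taurine (SLC6A6), proline (SLC6A7) and GABA (SLC6A11 and SLC6A13), with SLC6A12, SLC6A14, SLC6A15, SLC6A16 and SLC6A20. Apart from SLC6A2, at 5.85 ± 0.28 in iPSCs against 5.75 ± 0.20 in fibroblasts, their means were 5 or less. All other probe sets of SLC6A2 had means over the arrays of 3.64 or less.

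None of the 5 SLC16 genes with a named probe set was called, at a median log2 fold change of -0.13. All 5 had a mean of 5 or less, where 12.3% of all genes were called. SLC16A1 and SLC16A3 were not among them. Rows without a symbol in the annotation were not used, so that other genes of this family were not analysed here. SLC16A7 (MCT2), a carrier of pyruvate and lactate with high affinity, was called lower on 1 of its 2 probe sets. On that probe set it read 3.84 and 3.30 in the KB10460 and KB10973 fibroblasts, and every colony lay lower, at 2.99, 2.79 and 2.85 for KB10460 and 2.84, 3.02 and 2.95 for KB10973. The change there was -0.66 (SE 0.13). Its other probe set, with the higher mean, read 3.38 and 3.16 in the fibroblasts, 3.08, 3.23 and 3.17 in the KB10460 colonies and 3.11, 3.08 and 3.08 in the KB10973 colonies, where the cell types overlapped. The change was -0.15 (SE 0.08, limma adjusted p = 0.26). SLC16A4 also gave -0.15 (SE 0.08, limma adjusted p = 0.19) with every colony below the fibroblasts. SLC16A5, SLC16A8 and SLC16A10, the last a carrier of aromatic amino acids, read 4.22 ± 0.21, 4.01 ± 0.13 and 2.82 ± 0.09 in iPSCs and were not called. Over the 31 transporter genes for which no change is given here, log2 fold changes ran from -0.28 to 0.44 and the lowest limma adjusted p was 0.14.

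**Figure D3:**
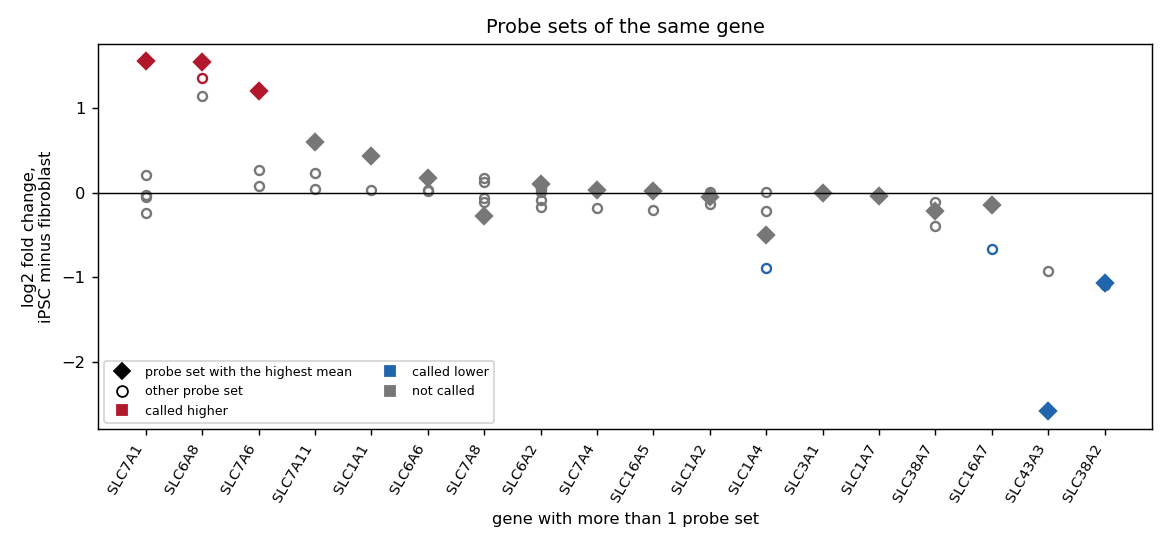
Log2 fold change of iPSCs over fibroblasts (vertical axis) on each probe set of the 18 transporter genes with more than 1; diamonds are the probe sets with the highest mean, circles the others, red those called higher, blue those called lower and grey those not called. Both probe sets of SLC38A2 lie near -1.1, whereas SLC7A1 has 1 probe set at 1.55 and 4 between -0.24 and 0.21.

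Probe sets of a gene were compared for the 18 transporters that have several. In SLC38A2 all were called in the same direction. Only some were called in SLC1A4, SLC6A8, SLC7A1, SLC7A6, SLC16A7 and SLC43A3, and no gene had probe sets called in opposite directions. SLC7A5, SLC3A2 and SLC1A3 had 1 probe set each and no such check.

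The colonies of the 2 animals were then set against each other. None of the 49 was called between KB10973 and KB10460 iPSCs in limma, where 0.142% of all genes were, and 7 had an unadjusted p under 0.05 (11.8% of all genes). The lowest adjusted p was that of SLC7A6, 0.096, with the KB10973 colonies lower by 0.55 (SE 0.09) on the log2 scale. The 6 others were SLC38A1, SLC38A2, SLC38A6 and SLC6A5, lower in KB10973, and SLC43A1 and SLC43A3, higher in KB10973. Over the transporters the median absolute difference between the donors' colonies was 0.096 and over all genes 0.097.

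The change from fibroblasts to iPSCs was also compared between donors. This rests on 1 fibroblast array for each animal, which the fit assumes to vary like a colony. In 3 of the 49 transporters the changes differed (3.42% of all genes), all of them SLC7 genes, and 6 had an unadjusted p under 0.05 (17.3% of all genes). SLC7A11 changed by -0.23 in KB10460 and by 1.44 in KB10973, a difference of 1.66 (SE 0.30, limma adjusted p = 0.031). For SLC7A5 the changes were 3.53 and 4.67, a difference of 1.14 (SE 0.17, limma adjusted p = 0.014). For SLC7A6 they were 1.67 and 0.73, a difference of -0.93 (SE 0.18, limma adjusted p = 0.043). The fibroblast arrays themselves differed, KB10973 minus KB10460, by -1.48 for SLC7A11, -1.02 for SLC7A5 and 0.39 for SLC7A6.

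SLC7A5 kept this call in every alternative run, with limma adjusted p of 0.011 to 0.047. The runs that left out an array left out colonies only, and SLC7A5 had no other probe set to average. They could not show whether its call depends on either fibroblast array. SLC7A11 and SLC7A6 lost the call when KB10460 colony 2 or 3 or KB10973 colony 1 or 2 was left out, with limma adjusted p of 0.050 to 0.069 for SLC7A11 and 0.080 to 0.11 for SLC7A6. They also lost it on the mean of their probe sets, at 0.61 (limma adjusted p = 0.24) and -0.22 (limma adjusted p = 0.52). SLC7A6 lost it too with a variance trend and robust estimation (limma adjusted p = 0.060) and at a fold threshold of 2. SLC38A1 gave a difference of 1.07 (SE 0.31, limma adjusted p = 0.14), which was called when KB10460 colony 2 was left out. The second probe set of SLC43A3, described above, gave 1.64 (SE 0.16, limma adjusted p = 0.0033), while the one with the highest mean gave -0.48 (SE 0.19, limma adjusted p = 0.28).

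**Figure D4:**
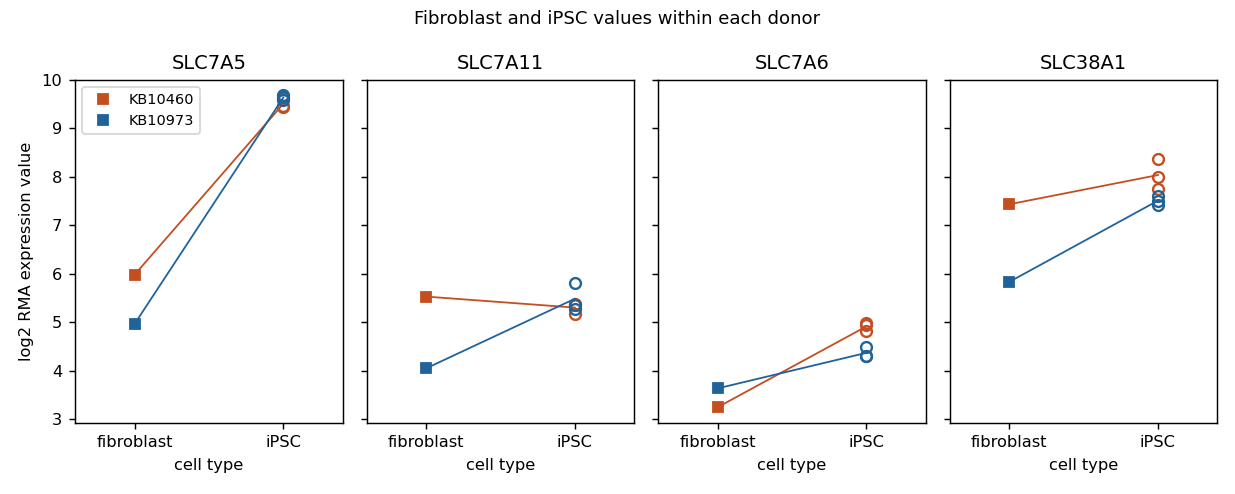
Log2 expression (vertical axis) of SLC7A5, SLC7A11, SLC7A6 and SLC38A1 in fibroblasts and iPSCs, with a line from each donor's fibroblast array (square) to the mean of its 3 colonies (circles). The KB10973 fibroblasts read 4.05 for SLC7A11 and the KB10460 fibroblasts 5.53, while the colonies of both donors lie between 5.17 and 5.82.

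Genes that work with the transporters were counted from lists of their own. Among 7 measured partners of monocarboxylate carriers and enzymes that make or use lactate and pyruvate, 2 were higher, 3 lower and 2 not called, 71.4% called against 26.7% of all genes. All 3 with a mean over 5 were called, against 51.2% of all genes at that level. LDHB, the lactate dehydrogenase subunit of oxidative tissues, rose by 1.11 (SE 0.09, limma adjusted p = 2.5e-05) and LDHA, the glycolytic subunit, changed by -0.98 (SE 0.17, limma adjusted p = 0.0020). MPC2, a subunit of the mitochondrial pyruvate carrier, changed by -1.36 (SE 0.13, limma adjusted p = 5.4e-05). BSG (basigin), which escorts monocarboxylate carriers to the membrane and also binds CD98, changed by 0.66 (SE 0.11, limma adjusted p = 0.0019).

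The response to amino acid shortage, run by the factor ATF4, had 7 genes higher, 3 lower and 7 not called among 17 (58.8% called, against 26.7% of all genes), at a median log2 fold change of 0.37. Of the 9 with a mean over 5, 66.7% were called, against 51.2% of all genes at that level. ASNS, asparagine synthetase, read 11.32 ± 0.31 in iPSCs against 6.55 ± 0.22 in fibroblasts, a change of 4.77 (SE 0.21, limma adjusted p = 3.4e-07). ATF4 itself changed by 1.00 (SE 0.22, limma adjusted p = 0.0067), and it was not called without the KB10973 fibroblasts. In contrast, CEBPB, a transcription factor with roles in inflammation and adipocytes, changed by -3.77 (SE 0.25) and HERPUD1, a gene of the endoplasmic reticulum stress response, by -2.70 (SE 0.33). The members thus moved in both directions.

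Among 21 genes that signal amino acid supply to the kinase complex mTORC1, 4 were higher, 2 lower and 15 not called, a share of 28.6% that is near the 26.7% of all genes. Of the 11 with a mean over 5, 45.5% were called, against 51.2% of all genes at that level. RRAGD, a Rag GTPase, rose by 1.84 (SE 0.29), SEH1L, a GATOR complex subunit that also serves the nuclear pore, by 1.51 (SE 0.31), and LAMTOR5, a subunit of the lysosomal anchor, changed by -1.92 (SE 0.17). Without the KB10460 fibroblasts, or on the mean of each gene's probe sets, 2 genes of the list were called higher.

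Enzymes of glutamine and glutamate metabolism had 3 genes higher, none lower and 9 not called of 12. The share called was 25%, also near the 26.7% of all genes. Of the 9 with a mean over 5, 33.3% were called, against 51.2% of all genes at that level. CAD, which starts pyrimidine synthesis from glutamine, rose by 3.11 (SE 0.33) and the aspartate aminotransferase GOT1 by 2.88 (SE 0.17). PPAT, which starts purine synthesis from glutamine, rose by 1.44 (SE 0.12). Of 14 enzymes of arginine, branched-chain amino acid and tryptophan metabolism 4 were higher, 1 lower and 9 not called. That was 35.7% called, against 26.7% of all genes. Of the 7 with a mean over 5, 71.4% were called, against 51.2% of all genes at that level. ODC1, which makes putrescine from ornithine, rose by 3.27 (SE 0.30), BCAT1, the cytosolic aminotransferase for branched-chain amino acids, by 3.04 (SE 0.20), and KYNU, an enzyme of tryptophan breakdown, changed by -4.28 (SE 0.21). Carriers of amino acids and peptides in other families had 3 genes higher, 2 lower and 13 not called of 18, or 27.8% called, near the share of all genes. All 4 with a mean over 5 were called, against 51.2% of all genes at that level. The mitochondrial aspartate and glutamate carrier SLC25A13 rose by 2.34 (SE 0.20), whereas SERINC1 and SERINC3, membrane proteins of a family named for serine incorporation into lipids, changed by -2.31 (SE 0.09) and -1.79 (SE 0.21).

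**Figure D5:**
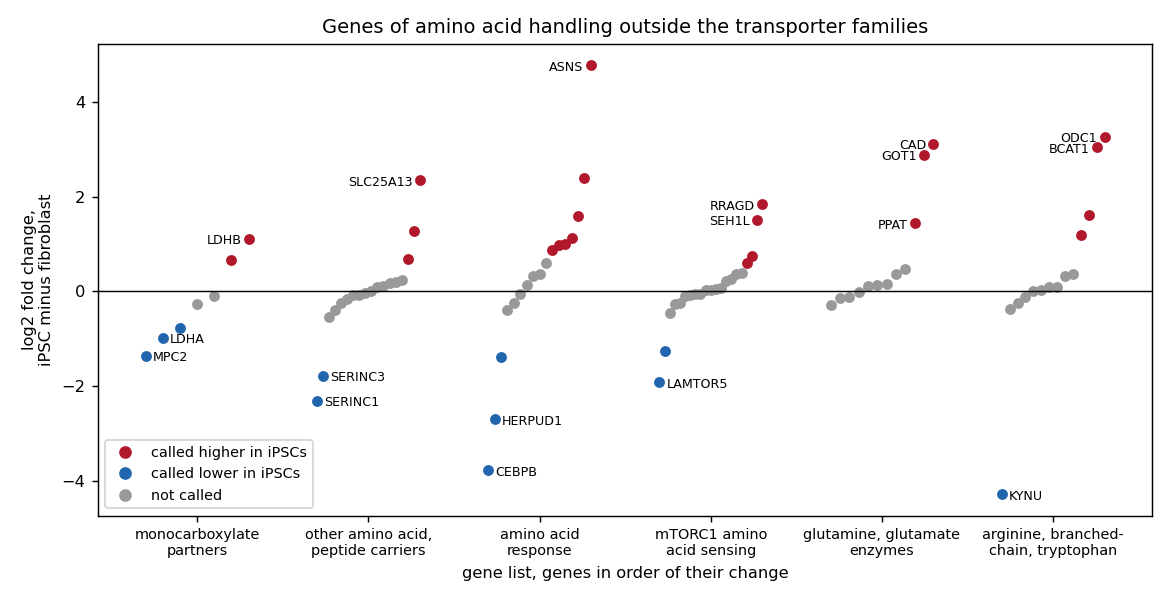
Log2 fold change of iPSCs over fibroblasts (vertical axis) for each measured gene of 6 lists around the transporters, in order of change within a list; red genes were called higher, blue lower and grey neither. ASNS at 4.77 and KYNU at -4.28 lie at the extremes, and most genes of the mTORC1 list and of the other carriers lie near 0.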

How the data were processed

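RNA of 8 cultures was hybridised to an Affymetrix array designed for human transcripts. The authors normalised the arrays together by RMA in WebArray (version not given in the sources used here) and deposited log2 expression values, which were used as deposited. No array value column was left without a sample. Of 22277 probe sets, 19070 carry 1 symbol, 1043 several and 2164 none in the platform annotation. Symbols matched RefSeq orangutan genes for 46 of 49 transporters.

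The cell types (6 against 2 arrays), the iPSCs of the donors (3 against 3 arrays) and, in a fit of 4 groups, the change in one donor against that in the other were compared with limma 3.58.1 in R 4.3.3, two-sided, with Benjamini-Hochberg adjustment over all probe sets in place of the SPLOSH estimate of the study. A gene was called at a fold over 1.5 and an adjusted p under 0.05. The fits for cell types and for the donors' iPSCs were run on simulated data with independent noise in each array. That noise held no shared donor or culture effect, and the difference of the change was not simulated. The number of arrays limits the precision.

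The members, gene lists and tests were chosen with earlier results of these data known. Values in each array are given for called members, up to 3 or 4 a family, for members called between donors or in the difference of the change, and for those with only some probe sets called. In the other lists the 3 called genes with the largest change are named, and BSG, ATF4 and the array values of SLC38A1 were chosen after their values were seen. Fibroblasts and iPSCs of an animal share a donor, so donor is a true pairing. Over all probe sets the difference between the donors in fibroblasts correlated at 0.02 with that in iPSCs. Alternatives were donor as a block, other variance models, centring, filters, probe set rules, thresholds and leaving out each array. For the difference of the change only colonies were left out. Promoter and protein sequences were not analysed here.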

Additional observations from a re-analysis of the deposited data

Results flagged for a closer look

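In 3 of 49 transporters (6.12%) 1 iPSC array lay far from the other 5, by Dixon's criterion, which chance meets in about 1 in 20 groups. SLC6A8 read 8.10 in KB10460 colony 1 and 6.22 to 6.83 in the other colonies. SLC3A2 read 7.19 in the same colony and 7.64 to 7.83 in the others. SLC7A11 read 5.82 in KB10973 colony 3 and 5.17 to 5.38 in the others.

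The change from fibroblasts to iPSCs differed between the donors, by the test of the difference itself, in SLC7A11 (1.66, KB10973 minus KB10460), SLC7A5 (1.14) and SLC7A6 (-0.93). Each value includes 1 fibroblast array for each animal.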

How the results depend on the processing

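SLC1A3, SLC3A2, SLC38A2, SLC43A3 and SLC7A5, 5 of the 8 called genes, kept their call in every alternative that refitted the values with the fold and p thresholds as given, and 37 of the 41 uncalled genes were called in none of these. The exceptions were SLC38A1, SLC38A6, SLC1A4 and SLC7A11. With other thresholds, SLC1A3 was lost at a fold of 2, SLC38A2 and SLC6A8 with Benjamini-Yekutieli adjustment, and SLC1A4, SLC1A5, SLC38A10 and SLC38A12 were called with no fold threshold. With the colonies of each donor averaged all 8 genes kept their call. The count called lower, 2, became 1 where only genes with a mean over 5 were tested (which removes SLC43A3), 5 with no fold threshold and 1 with Benjamini-Yekutieli adjustment, and ranged from 2 to 3 when each array was left out. The count called higher, 6, ranged from 5 to 7 with an array left out. With donor as a replicate block the pairing gave 7 higher and 3 lower. Blocking the donor comparison on the colony number gave 0 calls, as did every other alternative of that comparison. The count of differing changes, 3, became 1 on the mean of all probe sets and ranged from 1 to 3 with a colony left out. Fibroblast arrays were not left out there. The count of mTORC1 genes called higher, 4, became 2 on the mean of all probe sets and 2 without the KB10460 fibroblasts. The change of SLC7A11 was 1.34 without the KB10460 fibroblasts and turned to -0.14 without those of KB10973. The causes were not tested.

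With 2 fibroblast arrays, 1 for each animal, the spread of the fibroblasts is poorly known. For 36 of 49 genes a mean of 5 or less leaves little signal above background, and a probe set that misses the orangutan transcript would read low in both cell types. An uncalled gene is not shown to be unchanged.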
